A study of Mus musculus with 4 samples.

Results

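The 10 genes Gpx1, Gpx4, Prdx1, Prdx6, Sod1, Sod2, Cat, Gsr, Txn1 and Mgst1 encode enzymes and carriers that remove superoxide, hydrogen peroxide and lipid peroxides. They were followed across 4 one-colour Agilent arrays of NIH-3T3 cells, an immortal line of mouse embryo fibroblasts. Every gene probe whose accession belongs to one of these genes was taken, whatever its values, which gave 17 probes out of 55378 with a value on all 4 arrays and 10 gene names out of 36838. A gene name is a symbol or, where no symbol was matched, the accession of the probe. Counts, shares and ranks over all genes below are over these names, so they include sequences without a symbol. The array had 1 probe for each of 5 members and several for the other 5.

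One confluent culture had no treatment by its label, and 1 culture each received AR7, CA39 or CA77 at 20 µM for 24 h, in serum-containing medium. The 3 compounds are small molecules designed to bind retinoic acid receptor alpha and to raise chaperone-mediated autophagy, in which lysosomes take up proteins one at a time, and CA39 and CA77 were developed from AR7. They were dissolved in DMSO, so an effect of the solvent and an effect of a compound cannot be told apart against the untreated culture. Each group is 1 array of 1 line, with no replicate culture, so no test between groups was possible and every difference below is between 2 arrays.

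Superoxide made in respiration and by oxidases is turned into hydrogen peroxide by superoxide dismutases. The peroxide is then destroyed by catalase in peroxisomes, by glutathione peroxidases, which spend glutathione, and by peroxiredoxins, most of which are recharged by thioredoxin. Glutathione reductase and thioredoxin reductases return the spent thiols to their working form with electrons from NADPH. Several genes of this set are known targets of NRF2, a transcription factor that binds antioxidant response elements, and of AP-1 factors.

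For 3 members the stretch around the transcription start is printed, because the short core of an antioxidant response element, TGANNNNGC, occurs in it and because these genes were among the members farthest from untreated with AR7 and CA77. The sequences come from RefSeq on mouse assembly GRCm38.p6 and run from 250 bases before to 50 bases after the start, and all 3 genes lie on the plus strand. Capitals mark each match to the core, which in every case is on the minus strand, so that the printed letters are its reverse complement. Their places are chr4:116685349-116685648 for Prdx1, chr6:138140277-138140576 for Mgst1 and chr16:90220512-90220811 for Sod1.
Prdx1: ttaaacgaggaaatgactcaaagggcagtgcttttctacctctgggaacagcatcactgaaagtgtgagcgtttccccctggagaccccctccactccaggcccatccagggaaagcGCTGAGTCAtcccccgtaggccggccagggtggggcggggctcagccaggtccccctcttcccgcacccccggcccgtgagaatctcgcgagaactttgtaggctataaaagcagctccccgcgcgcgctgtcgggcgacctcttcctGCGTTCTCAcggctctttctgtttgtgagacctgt
Mgst1: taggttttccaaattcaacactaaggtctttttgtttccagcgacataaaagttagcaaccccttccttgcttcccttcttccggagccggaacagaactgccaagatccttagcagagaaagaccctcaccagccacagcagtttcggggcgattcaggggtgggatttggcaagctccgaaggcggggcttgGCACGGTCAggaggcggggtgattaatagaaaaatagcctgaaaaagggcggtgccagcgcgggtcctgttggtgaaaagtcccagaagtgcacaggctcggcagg
Sod1: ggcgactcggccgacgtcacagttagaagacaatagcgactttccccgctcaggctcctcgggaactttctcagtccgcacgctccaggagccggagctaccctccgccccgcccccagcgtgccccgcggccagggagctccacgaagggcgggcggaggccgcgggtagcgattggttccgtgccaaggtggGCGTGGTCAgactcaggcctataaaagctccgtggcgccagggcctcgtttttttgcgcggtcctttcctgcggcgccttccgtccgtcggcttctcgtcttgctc

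The first Prdx1 match lies 133 to 125 bases before the start and reads TGACTCAGC on its own strand. There it overlaps 1 of the 2 AP-1 motifs (TGANTCA) in this stretch. The AP-1 motif it does not overlap lies near the first printed base and is not in capitals. The other Prdx1 match, TGAGAACGC, lies 16 to 24 bases after the start. In Mgst1 the match reads TGACCGTGC and in Sod1 TGACCACGC, both 56 to 48 bases before the start. The core was searched on both strands, and 41.3% of 32851 promoters of the same length hold it. The narrower form TGACNNNGC, chosen after these sites were seen, is in 12.4% of them, and the AP-1 motif is in 7.81%. Of the 10 members, 8 were matched to the promoter table with 12 promoters, 3 members held the core and 1, Prdx1, held the AP-1 motif. The core was thus no more frequent in the members than in promoters at large. Cat, farther from untreated with AR7 than Prdx1 and Sod1, held no match to the core. The printed genes were picked on both the match and their differences, so no link between these can be read from them. A match describes letters and not a bound site, and Mgst1 has another annotated start whose promoter held no match.

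The arrays were alike in brightness, with a median net intensity of 138 to 167.5 scanner units, but the share of probes well above background ran from 52.2% on the CA39 array to 69.7% on the untreated array. The untreated array lay in another row of the slide than the treated arrays, and the CA77 array was read in a separate scan, so these cannot be told apart from treatment. Calls of more than 2-fold higher were more frequent in spot rows 1 to 160 of 384, with 3.89% against 0.682% of genes for AR7, 5.53% against 2.69% for CA39 and 4.85% against 0.799% for CA77. Calls of more than 2-fold lower were less frequent there, with 0.744% against 1.29%, 1.17% against 1.61% and 0.327% against 1.04% for the compounds in that order. Only 3 member probes lie in those rows, 1 of Cat and 2 of Prdx6. Of 9 fibroblast markers, 8 were well above background on all 4 arrays, and Pdgfrb was so on CA39 alone. Their summed level (log2) was highest with CA39, at 20.25, against 19.88 untreated, 19.64 with AR7 and 19.71 with CA77. Single markers differed more, as Fn1 went from 16.52 untreated to 17.98 with CA39, Pdgfra from 11.41 to 12.59 and Col1a1 from 15.59 to 16.65, while Col1a1 was at 14.55 with AR7. Of 8 markers of leukocytes, endothelium and epithelium, 7 had a probe, 4 of them were above background on every array and Cdh1 on none, with a summed level between 10.84 and 11.12. Cd3e, of leukocytes, was above background on every array, at 10.38 untreated and 10.36, 10.23 and 10.04 with AR7, CA39 and CA77. Krt18, of epithelium, was at 6.70 untreated and 7.68 with CA39. Epcam, also of epithelium, was at 5.46 and 7.53 there, but was above background on only 1 array. The part of these differences between arrays in the results below was not tested.

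All member probes were bright except those of Cat and the dimmest Prdx6 probe. Of the 17 probes, 16 were well above background on all 4 arrays. Values are normalized log2 intensities, and a difference is the log2 level of one array minus that of another. Brightness depends on the probe, so levels are compared between arrays and never between probes. Of 399 probes printed 10 times on each array, the 265 to 302 above background gave a tolerance of 0.16 (log2), the typical spread of a difference between 2 arrays from spot noise alone. It does not cover the spread between cultures, and values were set against it before rounding. Among 5812 genes of log2 13 or more, differences from the untreated array had an SD of 0.18 on the AR7 array, 0.35 on the CA39 array and 0.19 on the CA77 array.

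**Figure D1:**
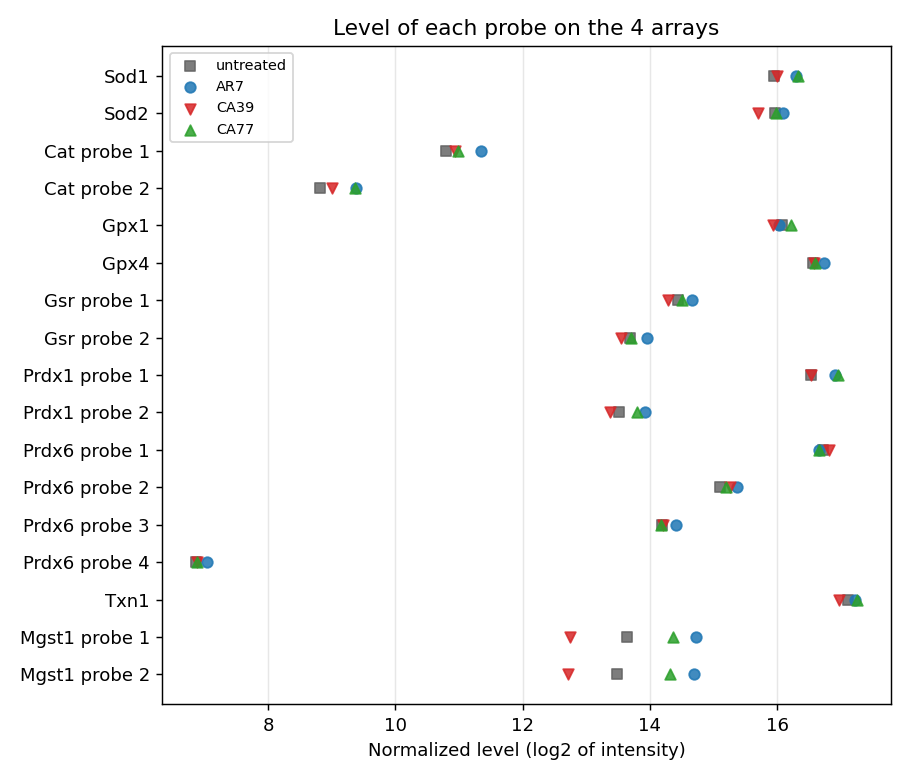
Normalized level (log2 of intensity, horizontal axis) of each of the 17 probes on the untreated, AR7, CA39 and CA77 arrays, 1 point per array. The 4 points of a probe lie close together for most members, while those of both Mgst1 probes spread over about 2 log2 units, from 12.75 to 14.73 for the brighter probe.

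Mgst1, microsomal glutathione transferase 1, is a membrane enzyme that joins glutathione to lipophilic toxins and reduces lipid peroxides. It was the member that differed most between the arrays. Its brighter probe was at 13.64 (log2) untreated and, with AR7, CA39 and CA77 in turn, at 14.73, 12.75 and 14.37, from net intensities of 12905, 28577, 7207.5 and 19506 scanner units. The level was thus higher than untreated with AR7 and CA77 and lower with CA39. Its differences from untreated were 1.09 (2.12-fold) with AR7, 0.73 (1.66-fold) with CA77 and -0.89 with CA39, which is 1.85-fold lower. A second Mgst1 probe, at 13.49, 14.70, 12.72 and 14.31 in the same order of arrays, differed by 1.21 with AR7, by 0.82 with CA77 and by -0.76 with CA39. Among 20594 genes above background on all 4 arrays, Mgst1 ranked 99th from the highest with AR7, 178th from the highest with CA77 and 317th from the lowest with CA39.

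The cytosolic and mitochondrial superoxide dismutases gave different patterns. Sod1, the copper and zinc enzyme of the cytosol, stood on these arrays, in the same order, at 15.95, 16.29, 15.99 and 16.33. It was higher with AR7 by 0.35 (1.27-fold) and with CA77 by 0.38 (1.30-fold), and with CA39 its difference of 0.04 was within the tolerance. Sod2, the manganese enzyme of mitochondria, was at 15.96, 16.09, 15.70 and 15.98. Only with CA39 did Sod2 leave the tolerance, at -0.26, or 1.20-fold lower. Both dismutase differences with CA39 were smaller than the SD of 0.35 among bright genes on that array.

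Catalase, the haem enzyme that splits hydrogen peroxide in peroxisomes, was after Mgst1 the member with the widest range over the arrays. On the untreated, AR7, CA39 and CA77 arrays, in that order, its brightest probe was at 10.79, 11.35, 10.94 and 10.98, and a second was at 8.82, 9.38, 9.0 and 9.36. Both probes were higher with AR7 by 0.56, which is 1.48-fold and 1.47-fold, and 3 of 9 other ways of processing put Cat past 1.5-fold with AR7. With CA77 they disagreed by more than the tolerance, at 0.20 and 0.54, so the size of that difference is uncertain. With CA39 they gave 0.15 and 0.18. The brighter probe lies in spot row 21, among the rows with more calls, and the second lies outside them.

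Gpx1, the abundant cytosolic glutathione peroxidase, and Gpx4, which reduces phospholipid hydroperoxides in membranes and restrains ferroptosis, were close to untreated in the processing used here. In the same order of arrays, Gpx1 was at 16.07, 16.03, 15.93 and 16.21, and Gpx4 at 16.57, 16.73, 16.58 and 16.59. None of these 6 differences from untreated left the tolerance, the largest being 0.16 for Gpx4 with AR7. That does not hold under scaling at the 75th percentile, where with CA39 Gpx1 was at -0.31, past the tolerance, and Gpx4 turned to -0.16, just inside it, nor with the deposited series table, where Gpx4 with AR7 passed it. Both proteins carry selenocysteine. The annotation names 2 copies of Gpx4, so its probe may read more than the gene itself.

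Gsr, glutathione reductase, was higher with AR7 alone. On untreated, AR7, CA39 and CA77 its brighter probe was at 14.44, 14.66, 14.28 and 14.51, and its other probe at 13.69, 13.95, 13.54 and 13.71. The difference with AR7 was 0.22 and 0.26 by the probes. With CA39 it was -0.16 and -0.15, at the edge of the tolerance and inside it under 2 of 9 other ways of processing, and with CA77 0.07 and 0.02, inside it.

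Prdx1, a cytosolic peroxiredoxin that uses thioredoxin, was higher on the same arrays as Sod1. On untreated, AR7, CA39 and CA77 the brighter of its probes was at 16.53, 16.91, 16.53 and 16.95. The other was at 13.52, 13.92, 13.38 and 13.80. By the brighter probe Prdx1 was 1.30-fold higher with AR7 and 1.34-fold higher with CA77, at 0.37 and 0.42, and its difference with CA39 was 0.00. The other probe gave 0.40, 0.28 and -0.14. In rank, Prdx1 stood 864th from the highest of 20594 genes with AR7 and 653rd with CA77, and Sod1 stood 992nd and 812th. A pseudogene copy of Prdx1 is annotated and could share signal with the probes.

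Prdx6 has 1 reactive cysteine, draws on glutathione rather than thioredoxin, and also has phospholipase activity. Its 4 probes did not give 1 answer with AR7. The brightest was at 16.72 untreated and at 16.66, 16.82 and 16.66 with AR7, CA39 and CA77, so its differences of -0.06, 0.10 and -0.06 were all within the tolerance. One more was at 15.10, 15.37, 15.26 and 15.19, and another at 14.19, 14.41, 14.21 and 14.17. They were higher with AR7 by 0.26 and 0.23. The dimmest probe, near background at 6.86, 7.04, 6.88 and 6.89 and not well above it with CA39, gave 0.19 with AR7. Over the probes the difference with AR7 therefore ran from -0.06 to 0.26. Prdx6b and a pseudogene are annotated copies, and which probes read them was not tested. The brightest and the dimmest probe lie in spot rows 1 to 160.

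Txn1, thioredoxin, the small protein that recharges most peroxiredoxins, was at 17.12 untreated and at 17.22, 16.97 and 17.26 with AR7, CA39 and CA77. Its differences of 0.10, -0.15 and 0.14 were within the tolerance as processed here, but each passed it under 1 of 9 other ways of processing, at 0.16 with AR7, -0.22 with CA39 and 0.18 with CA77.

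**Figure D2:**
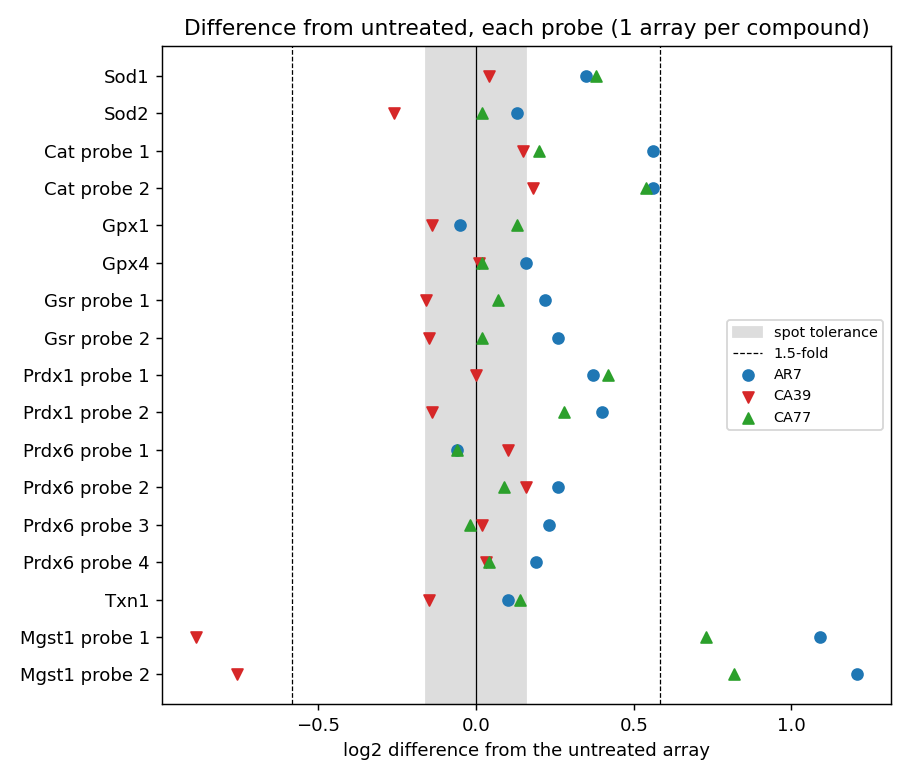
Difference from untreated (log2, horizontal axis) of each of the 17 probes with AR7, CA39 and CA77, 1 point per compound. The grey band is the spot tolerance of 0.16 and the dashed lines mark 1.5-fold. The points of both Mgst1 probes alone lie outside the dashed lines, and the Prdx6 probe 4 value with CA39 was not well above background.

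Counted over the members by their brightest probe, with AR7 1 of 10 was past 2-fold higher, against 2% of 27855 genes, and 0 were past 2-fold lower, against 1.07%. Past 1.5-fold the counts were 1 higher and 0 lower, with 3.28% and 3.22% of all genes. Past the tolerance were 5 higher, Cat, Gsr, Mgst1, Prdx1 and Sod1, and 0 lower, where 14.9% of all genes were higher and 26.2% lower. The median difference was 0.19 over the members and -0.027 over all genes, and 8 of 10 members were above 0. The members were chosen with earlier results of these data known, so counts set beside the shares of all genes are not a blind comparison.

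With CA77, 0 members were past 2-fold in either direction, against 2.47% of 28126 genes higher and 0.747% lower. Mgst1 was the 1 member past 1.5-fold higher and 0 were past it lower, against 4.26% and 3.53%. Past the tolerance were 4 higher, Cat, Mgst1, Prdx1 and Sod1, and 0 lower, with 19.4% of genes higher and 30.4% lower. The median was 0.14 over the members and -0.037 over all genes. The AR7 and CA77 differences share the untreated array, so the likeness of these lists is not separate evidence.

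With CA39, 0 members were past 2-fold, against 3.86% of 27894 genes higher and 1.43% lower. Past 1.5-fold were 0 higher and 1 lower, Mgst1, against 6.93% and 4.9%. Past the tolerance were 0 higher and 3 lower, Gsr, Mgst1 and Sod2, against 20.9% higher and 32.7% lower, so that the members lower with CA39 were no more frequent than lower genes at large. The median of the members was -0.07, and that of all genes was -0.023.

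The compounds were then set against each other directly at the same dose and time, in 3 pairs, without a test because each has 1 array. CA39 was lower than AR7 by more than the tolerance in 7 of 10 members (33.9% of 23075 genes were) and higher in 0 (27.4% were). The 7 were Mgst1 at -1.98, Cat at -0.41, Gsr at -0.39, Sod2 at -0.39, Prdx1 at -0.37, Sod1 at -0.31 and Txn1 at -0.25. The median over the members was -0.34, and over all genes -0.034. For Mgst1 this is a 3.93-fold lower level by the brighter probe and 3.92-fold by the other, the 80th lowest of 20594 genes. The SD of CA39 minus AR7 among the 5812 bright genes was 0.40, so the values of the members other than Mgst1 are about as large as that spread, or smaller.

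Against CA77, CA39 was lower past the tolerance in 7 members, Mgst1, Prdx1, Sod1, Sod2, Txn1, Gpx1 and Gsr, and higher in 1, Prdx6 at 0.16, where 31% of 25457 genes were lower and 25.3% higher. The Prdx6 value was within the tolerance under 5 of 9 other ways of processing, and its next 2 probes gave 0.07 and 0.04. Cat, at -0.05 by its brighter probe, was -0.36 by its second. This comparison uses the same CA39 array as the one before it, so the likeness of the lists is not separate evidence. Mgst1 was at -1.62, 3.07-fold lower, with -1.58 by its second probe. The other 6 ran from -0.42 for Prdx1 to -0.23 for Gsr, and the median over all members was -0.28, and over all genes -0.022. Among the 5812 bright genes the SD of CA39 minus CA77 was 0.40.

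CA77 and AR7 lay closer together. Past the tolerance CA77 was higher than AR7 in 1 member, Gpx1 at 0.18, and lower in 2, Cat at -0.37 and Mgst1 at -0.36, where 19.7% of 25344 genes were higher and 19.7% lower. The second Cat probe gave 9.38 with AR7 and 9.36 with CA77, so the Cat difference rests on the brighter probe. The Gpx1 call was lost under 1 of 9 other ways of processing, while Gsr became lower under 3 of them and Prdx6 under 2. Prdx1 and Sod1 differed between these arrays by 0.04 and 0.03, within the tolerance. With 1 array each, no interval for a difference between compounds can be given, and a small difference does not show that the compounds act alike.

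**Figure D3:**
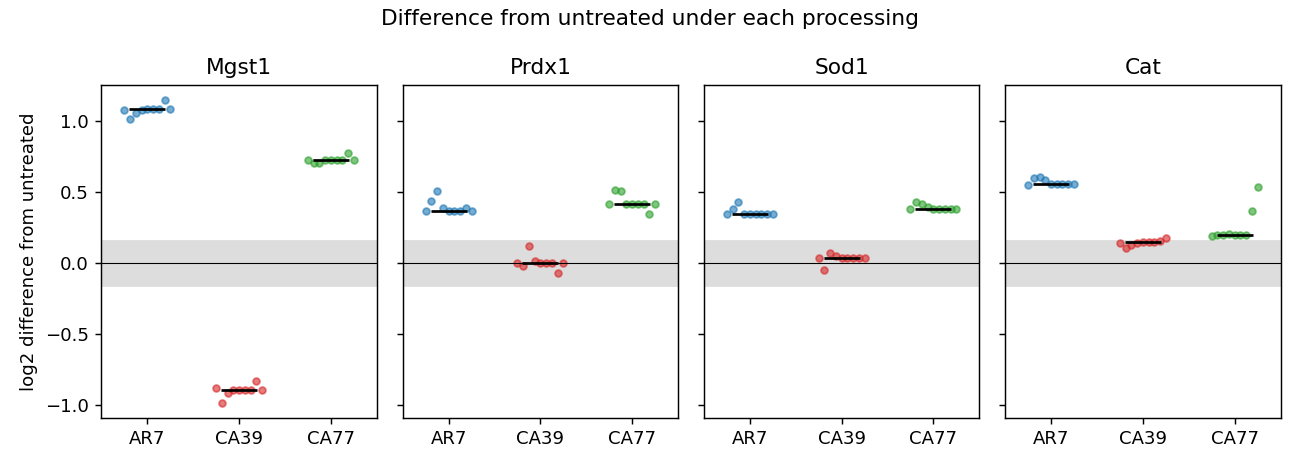
Difference from untreated (log2, vertical axis) of Mgst1, Prdx1, Sod1 and Cat with each compound, as processed here (black bar) and under 9 other ways of processing (1 point each), with the spot tolerance of 0.16 in grey. Mgst1 stays between 1.02 and 1.15 with AR7 and between -0.98 and -0.83 with CA39, while Cat with CA77 runs from 0.19 to 0.54.

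Over the 4 arrays, the range of the log2 level was 1.98 for Mgst1, 0.56 for Cat, 0.42 for Prdx1, 0.39 for Sod2, 0.39 for Gsr, 0.38 for Sod1, 0.29 for Txn1, 0.27 for Gpx1, 0.16 for Prdx6 and 0.16 for Gpx4. After Mgst1, no neighbours in this order differ by more than the tolerance. Among 13019 gene symbols above background on all 4 arrays, the levels most like those of Mgst1, by root mean square distance after centring on the gene's own mean, were those of Aqp8 (distance 0.048), a membrane channel for water and hydrogen peroxide, Dnmt3l (0.094), a cofactor of DNA methyltransferases, and Plpp3 (0.097), a lipid phosphate phosphatase. For Aqp8 the AR7, CA39 and CA77 differences from untreated were 1.00, -0.98 and 0.60. For Cat the nearest were the predicted genes Gm6116 (0.040) and Gm10825 (0.042), and Tmc6 (0.043), a transmembrane protein. That search used the brighter Cat probe, whose value with CA77 the second probe did not share, and Gm6116 and Gm10825, like that probe, lie in spot rows 1 to 160. With 4 points per gene, such distances describe these arrays only.

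The neighbours of the 10 enzymes in the pathway were taken from a list of 45 genes, of which 44 had a probe. Like the members, the list was chosen with earlier results of these data known. Of these, 40 could be compared for AR7, 40 for CA39 and 39 in the CA77 culture. Past 1.5-fold were 9 higher and 1 lower with AR7, 6 higher and 2 lower with CA39, and 1 higher and 1 lower with CA77. Over all genes the shares past 1.5-fold, as given above, were 3.28% higher and 3.22% lower for AR7, for CA39 they were 6.93% and 4.9%, and for CA77 they were 4.26% and 3.53%. Past the tolerance, AR7 had 12 list genes higher and 8 lower, CA39 had 14 higher and 13 lower, and CA77 had 12 higher and 9 lower. The all-gene shares at the tolerance were 14.9% higher and 26.2% lower for AR7, 20.9% and 32.7% on the CA39 array, and 19.4% and 30.4% on the CA77 array. In spot rows over 160 alone, the list genes past 1.5-fold numbered 4 higher and 1 lower of 27 with AR7, 4 higher and 1 lower of 28 with CA39, and 1 higher and 1 lower of 27 with CA77. The shares of all genes in those rows were 1.57% higher and 4.28% lower for AR7, 5.25% and 5.84% on the CA39 array, and 1.94% and 4.68% on the CA77 array. Over the list the medians were 0.04, -0.04 and 0.02, beside -0.027, -0.023 and -0.037 over all genes. In all, 15 genes were past 1.5-fold with some compound, and the 12 with the largest differences are named here by group.

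Of genes that supply glutathione or use it, Slc7a11, the cystine importer, was 3.13-fold higher with AR7 (1.65) and 4.14-fold with CA39 (2.05), with 0.54 for CA77. It is dim, at 6.76 on untreated, and lies in spot row 16. Gclm, the modifier subunit of the enzyme that limits glutathione synthesis, was 1.92-fold higher with AR7, and its differences with CA39 and CA77 were -0.04 and 0.18. Mgst2, a relative of Mgst1, was 1.80-fold higher with AR7, 1.5-fold with CA77 and 1.18-fold with CA39, so it did not share the lower level of Mgst1 on the CA39 array. The Mgst2 difference with CA77, 0.59, lies at the 1.5-fold limit and was 0.57 with the deposited series table, where Slc7a11 was past it instead, at 0.63. In this group of 10 compared genes, past 1.5-fold the AR7 culture had 3 higher, that with CA39 had 1 and that with CA77 had 1, and 0 were lower. Over all genes 3.28%, 6.93% and 4.26% were higher, so 1 of 10 is not set apart from genes at large.

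The other glutathione peroxidases that stood apart were dim. Gpx6 was at 9.67 untreated and at 10.33, 7.68 and 10.04 with AR7, CA39 and CA77, lower with CA39 by 1.99 and higher with AR7 by 0.66. Its direction with each compound was that of Mgst1. Gpx2 was higher with AR7 by 0.78 and with CA77 by 0.43, and its value with CA39 was 0.00. Gpx3, the secreted form, was above background with AR7 alone, and Gpx7, a form of the endoplasmic reticulum, with CA39 alone. The lower bound on the fold over untreated moved with the background correction. For Gpx3 it was 2.59-fold as processed here and 1.86-fold with an offset of 50, and 5.27-fold to 7.2-fold under the other signals and scalings. For Gpx7 it was 3.57-fold, 2.39-fold and 5.43-fold to 7.63-fold.

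Around superoxide and the thiol carriers, 4 of the 12 genes stood apart mainly on the CA39 array. These groups also held genes higher past 1.5-fold with AR7, none of them among the 12. They were 1 of 2 compared for superoxide, 1 of 8 for peroxiredoxins and their repair, and 1 of 7 for the thioredoxin system. Over all genes 3.28% were. Ccs, the chaperone that loads copper into Sod1, was at 7.73 on untreated and 10.09 with CA39 (5.12-fold higher), with 0.11 for AR7 and -0.13 for CA77. Sesn3, a stress-induced sestrin, was at 9.13 and 12.12 (7.94-fold higher), with -0.29 and -0.28. Txnip, which binds and restrains thioredoxin, differed by 0.08, 0.95 and 0.36 with AR7, CA39 and CA77, and a second probe gave -0.03, 1.06 and 0.43. Cyba, the small subunit of NADPH oxidases, was lower with CA39, at -0.81. A second Cyba probe was not well above background on that array, and with the floor in place of its signal the difference was -0.09, so the lower level rests on the brighter probe. Sod1 and Txn1, to which Ccs and Txnip are tied, differed from untreated by 0.04 and -0.15 on that array.

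Nox4, an oxidase that makes hydrogen peroxide, differed from untreated by -0.88, 0.76 and -0.66 with AR7, CA39 and CA77 at its brightest probe. Its 3 probes disagreed, since one gave -0.15, 0.47 and -0.06 and another -0.70, 0.60 and 0.51, so no direction holds over the probes with CA77. Of 5 genes for selenoprotein synthesis, on which Gpx1 and Gpx4 depend, 0 were past 1.5-fold with any compound. With CA39, 4 of those 5 were lower past the tolerance, where 32.7% of all genes were, with a median of -0.34 against -0.023 over all genes. Their values, from -0.49 to -0.12, are about as large as the SD of 0.45 among genes above background on all 4 arrays, or smaller. Of the 12 genes named, Slc7a11, Gclm, Gpx2, Gpx3, Sesn3 and the brighter Cyba probe lie in spot rows 1 to 160, and the part of that position in their values was not tested.

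**Figure D4:**
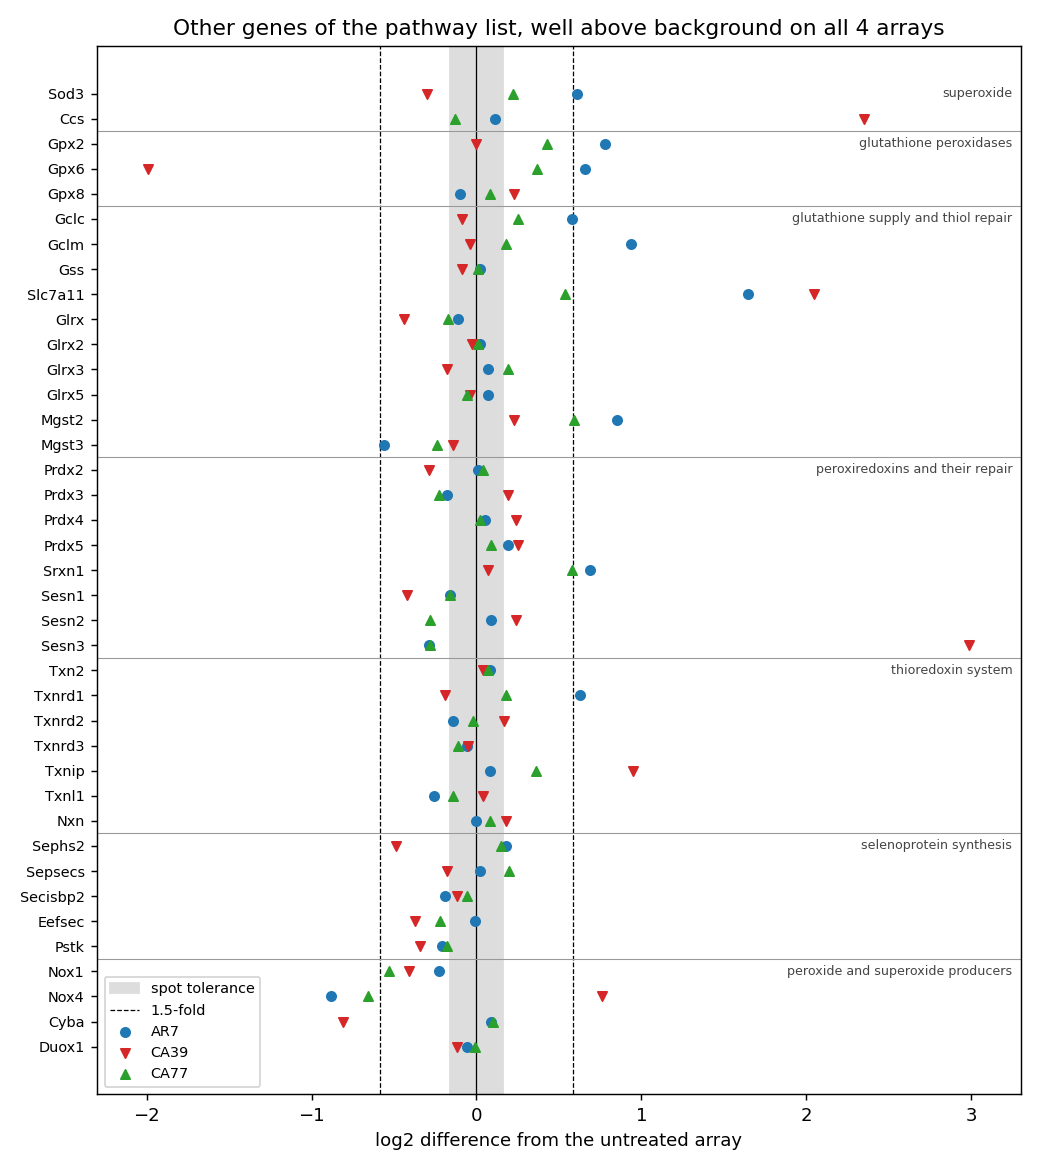
Difference from untreated (log2, horizontal axis) with AR7, CA39 and CA77 of the genes of the pathway list that were well above background on all 4 arrays, arranged by group, with the spot tolerance in grey and 1.5-fold as dashed lines. Most points lie inside the dashed lines, and the farthest are Sesn3 at 2.99, Ccs at 2.35 and Slc7a11 at 2.05 with CA39, and Gpx6 at -1.99 with CA39.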

How the data were processed

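Total RNA of 4 NIH-3T3 cultures was labelled with Cy3 and hybridised to Agilent mouse arrays by the authors. The deposited values are linear spot intensities, each with a local background, extracted with Feature Extraction 10.7.3.1 from 62976 spots per array. The deposited series table held the background-subtracted intensity, unscaled (largest difference 0). Per the labels the authors used oligo and RMA, and the aim of following those steps set the processing here.

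Spot medians were background-corrected in limma 3.58.1 under R 4.3.3 (normexp, no offset), control spots were dropped, and arrays were quantile normalized and put on the log2 scale. Marked spots were left out (142 to 328 per array; 0 were saturated) and spots of a probe averaged. A probe was above background when over 50% of its spots were. The brightest probe stood for a gene. A value below background was raised to the array's lowest signal above background, and printed bounds use the 1st percentile of that signal instead. A gene was compared when above background on at least 1 of the 2 arrays. The number of arrays, 1 per group, limits the precision. The steps were tested on simulated data.

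Symbols came from RefSeq accessions of GRCm38.p6 (27512 probes, 20895 symbols). The array design cites an older build, so positions are given only for RefSeq promoters. Members and lists were chosen with earlier results of these data known. All members were named, with up to 12 list genes past 1.5-fold in order of size and the 3 genes nearest in pattern to the 2 members of widest range. Planned protein sequences were not used here. Alternatives numbered 9.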

Additional observations from a re-analysis of the deposited data

Results flagged for a closer look

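Mgst1 stood on opposite sides of the untreated array with different compounds. Its log2 difference from untreated with AR7 exceeded that with CA39 by 1.98, and its difference with CA77 exceeded that with CA39 by 1.62. Both Mgst1 probes gave these directions. With 1 array per compound, the differences were not tested.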

How the results depend on the processing

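The 10 members were recomputed under 9 alternatives: normexp with an offset of 50, 75th percentile scaling of the processed signal, the processed signal after quantile normalization, the deposited series table, no floor and no filter, a floor at the 1st percentile, probes above background on all 4 arrays, the median over the probes of a gene, and spot rows over 160 alone. Of 540 differences, 525 moved by less than the tolerance, 15 moved by more and 0 of those past 1.5-fold turned sign, and all 27 medians moved by less than the tolerance. Many of the 540 could not move. The brightest probe of every member was above background on all 4 arrays, so the settings of floor, filter and detection left its value unchanged. Members with 1 probe, all in spot rows over 160, also kept their value under the median over probes and in those rows alone. Of 54 counts 3 moved: members past 1.5-fold with AR7 numbered 2 under the 75th percentile scaling, 2 with the quantile-normalized processed signal and 2 with the series table, where Cat, at 0.55 to 0.61 over the alternatives, joined Mgst1. Among the other moves, Prdx6 with AR7 was 0.26 and Cat with CA77 was 0.54 in spot rows over 160, where other probes are read, and under the 75th percentile scaling Gpx1 with CA39 was -0.31 and Gpx4 -0.16. With alternatives chosen after seeing the data, 273 differences of the 12 named pathway genes were recomputed: 240 moved by less than the tolerance, 32 by more, and 1 past 1.5-fold turned sign, Nox4 with CA77, at 0.22 by the median over its probes. List genes past 1.5-fold numbered 5 with AR7 and 5 with CA39 in spot rows over 160, and 1 with CA77 by the median over probes. Cyba with CA39 was -0.09 in rows over 160. Of 60 calls of members against the tolerance, 43 were the same under every alternative and 17 changed under at least 1, none of them for Mgst1, Prdx1, Sod1 or Sod2. Sod1 and Sod2 have 1 probe each, so for them only the alternatives of signal, background correction and scaling could have changed a call. No paired analysis was possible because each group holds 1 array. Spot noise sets the tolerance, and the spread between cultures is unknown. Slc7a11 with AR7 and CA39, Gpx6, Ccs and Cyba with CA39, and the bounds of Gpx3 and Gpx7 moved by more than the tolerance under the background correction and the scaling.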
